A study of Caenorhabditis elegans with 24 samples.

Results

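The nuclear pore complex is the channel in the nuclear envelope through which proteins and RNA pass between nucleus and cytoplasm. Stacked rings of scaffold nucleoporins hold a central channel lined with nucleoporins rich in phenylalanine-glycine (FG) repeats, which transport receptors of the importin and exportin families bind on their way through. The small GTPase Ran gives that traffic its direction, because importins release cargo and exportins take it up where Ran is in its GTP form, inside the nucleus. Of 20447 genes counted, the 40 described here are all those whose symbol begins with npp, ima, imb, xpo or ran followed by a number. They comprise nucleoporins, importins and exportins of Caenorhabditis elegans and genes of the Ran cycle. Pore genes that carry another symbol are left out. The 40 lie on chromosomes I (13 genes), II (8), III (8), IV (8) and V (3). The family was taken up because npp-11, the homologue of the central channel nucleoporin Nup62, had a high footprint level in noNSUN animals at 20°C in an earlier analysis of the same libraries. The question was whether that change is shared by the other pore and transport genes named in this way.

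RNA (input RNA-seq) and ribosome-protected fragments (RPFs, also called footprints, from Ribo-seq) had been counted per gene in whole adult animals of 4 groups, giving 24 libraries with 3 replicates of each group in either assay. The groups were noNSUN at 27°C, noNSUN at 20°C, wild type at 27°C and wild type at 20°C (synchronised animals held for some hours at the stated temperature before harvest, 27°C being an acute heat shock). The noNSUN strain lacks 5-methylcytosine in RNA: it is homozygous for catalytic cysteine-to-alanine mutations in 3 genes, nsun-4 (allele mj457), nsun-1 (allele mj473) and nsun-2 (allele mj458), and for a deletion in nsun-5 (allele tm3898), present in all cells, and the wild type is the N2 strain. Footprints and input RNA came from the same lysates, so the RPF to RNA ratio, called translation efficiency, compares 2 libraries of 1 sample.

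Library totals ran between 1918731 and 3412334 counts for RNA and between 22761 and 396184 for RPFs, so footprint values rest on few counts: 3 counts, taken as the floor, were worth between 7.57 and 132 CPM, counts scaled to library size in per-million units. All 40 genes passed the filter on low counts in RNA (of 10815 genes tested), and 23 passed in RPFs (of 1624) and in translation efficiency (of 1599), leaving 17 whose footprints are given only as values. The heat shock genes hsp-16.2 and hsp-16.41 rose at 27°C in both genotypes, by log2 changes between 6.55 and 7.39 in RNA. Of the mutated genes only nsun-5, which carries the deletion, bears on the labels, since point mutants keep their RNA. In RNA, nsun-5 was at 10.5 to 12.9 CPM in noNSUN and 17.7 to 25.0 CPM in wild type at 20°C, lower in noNSUN without overlap, and 12.9 to 16.7 CPM in noNSUN and 15.9 CPM and more in wild type at 27°C, where the groups overlap. The log2 changes of −0.86 at 20°C (adjusted p = 0.371) and −0.45 at 27°C (adjusted p = 1.00) did not pass the test. One library stood apart: in wild type at 20°C, RNA replicate 1 had the lowest value of all 12 RNA libraries for 24 of the 40 members. The 12 germline and oocyte markers summed to 5034 CPM in it, against 8608 and 9090 CPM in the other wild-type libraries at 20°C, while the 4 body wall muscle markers summed to 7667 CPM, the 5 neuron markers to 603 CPM and the 4 hypodermis and cuticle markers to 416 CPM, each the highest of all RNA libraries. Replicate 1 of each other group also had the lowest RNA sum of the 40 members in its group, by less. The sums were 10620 against 11460 and 11860 CPM in noNSUN at 20°C and 10330 against 10590 and 11130 CPM in wild type at 27°C. In noNSUN at 27°C they were 9748 against 10780 and 11160 CPM. The footprint library of wild type at 20°C, replicate 1, also had the lowest sum of its group, 7456 against 9092 and 9527 CPM. It holds the lowest npp-11 footprint value as well, 19.5 CPM on 1 count, so footprint contrasts with wild type at 20°C rest partly on this sample. In whole-animal samples fewer cells of a type and less RNA per cell cannot be told apart, and the part of tissue content in the values below was not tested. Sperm marker RNA (31 msp genes) was at or near 0 in every library.

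What sets part of the family apart in sequence is the FG repeat. Counted as adjacent phenylalanine and glycine codons, 7 members had at least 10 such pairs (npp-10 37, npp-7 31, npp-11 31, npp-14 20, npp-4 16, npp-1 13 and npp-9 12), against 71 of all genes with a complete coding sequence (0.362%). Per 100 codons npp-11 had 3.85 pairs, more than 99.9% of genes. The 3 stretches below show how the repeats look in the coding strand of other members, 120 bases each, with every FG codon pair in capitals. They were read from the WBcel235 reference genome and its annotation, at chrIII:6019429-6019548 on the minus strand for npp-10 (codons 1 to 40 of the Nup98/Nup96 precursor), at chrIV:9860108-9860227 on the plus strand for npp-1 (codons 194 to 233) and at chrIII:3402320-3402439 on the minus strand for npp-9 (codons 509 to 548), all within coding exons.
npp-10: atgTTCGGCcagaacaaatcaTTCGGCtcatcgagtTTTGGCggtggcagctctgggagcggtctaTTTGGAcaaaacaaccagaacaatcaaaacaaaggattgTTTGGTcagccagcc
npp-1: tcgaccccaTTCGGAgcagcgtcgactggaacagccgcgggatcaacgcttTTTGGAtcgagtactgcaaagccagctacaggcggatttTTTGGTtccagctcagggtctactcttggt
npp-9: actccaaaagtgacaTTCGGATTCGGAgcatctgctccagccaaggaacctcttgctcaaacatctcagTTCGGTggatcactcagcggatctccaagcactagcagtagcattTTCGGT
The windows hold 5, 3 and 4 pairs in the order given. In npp-10 the first pair follows the start codon directly.

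The central channel is formed by npp-11 (Nup62), npp-4 (Nup58) and npp-1 (Nup54), whose vertebrate homologues form 1 complex. The gene npp-11 lies on chromosome I (WBcel235, 3818074 to 3821496, plus strand) and no exon of another gene overlaps it. Footprints on npp-11 were 446, 163 and 264 CPM in noNSUN libraries at 20°C, against 19.5, 72.9 and 76.8 CPM in wild-type libraries at 20°C. The lowest noNSUN library was thus above the highest wild-type library, and the noNSUN libraries differed among themselves as well. These values rest on 40, 9 and 9 counts in noNSUN and on 1, 10 and 5 counts in wild type. Scaled to the library total alone, without the TMM scaling factor that enters all other CPM of members and markers, and with exact (Clopper-Pearson) 95% intervals, which cover counting error only, the noNSUN libraries had 414.9 (296.4 to 564.9), 157.2 (71.9 to 298.4) and 255.9 (117.0 to 485.7), and the wild-type libraries had 20.1 (0.510 to 112.2), 71.0 (34.1 to 130.6) and 76.8 (24.9 to 179.2). The intervals of noNSUN replicates 2 and 3 thus reach into those of the wild type. The log2 change was 2.25 ± 0.47 (SE) in RPFs, the highest of the 1624 genes tested, and 2.20 ± 0.43 (SE) in translation efficiency, rank 2 of 1599. It is given as a description, because npp-11 was chosen for it. Without noNSUN replicate 1, the library with 40 counts, the log2 change was 1.68 in RPFs and 1.55 in translation efficiency.

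At 27°C the same direction was seen at a smaller size. Footprints on npp-11 were 159, 139 and 185 CPM in noNSUN against 76.1, 118 and 87.6 CPM in wild type, again without overlap. These values rest on 27, 57 and 6 counts in noNSUN and on 8, 4 and 2 counts in wild type. Scaled to the library total alone, the exact 95% intervals were 109.4 to 241.4, 109.0 to 186.4 and 69.3 to 410.9 in noNSUN. In wild type they were 34.05 to 155.4, 32.0 to 300.3 and 10.6 to 317.4, so every noNSUN interval reaches into those of the wild type. The log2 change was 0.79 ± 0.50 (SE, adjusted p = 0.755) in RPFs and 0.75 ± 0.46 (SE, adjusted p = 0.936) in translation efficiency, and neither passed the threshold of 0.05. With heat the estimates had opposite signs in the 2 genotypes. The log2 change at 27°C against 20°C was −0.95 ± 0.39 (SE, adjusted p = 0.194) in noNSUN and 0.52 ± 0.60 (SE, adjusted p = 0.842) in wild type, and the difference between these responses was −1.47 ± 0.72 (SE, adjusted p = 0.84). None of these passed, and the 20°C libraries that chose the gene enter all 3. Only the 27°C genotype comparison uses other libraries, and it is not free of selection either. The gene passed the filter on low counts through noNSUN libraries alone, those at 27°C among them.

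RNA of npp-11 did not show the pattern of its footprints. It was 155, 168 and 194 CPM in noNSUN at 27°C, 189, 183 and 203 CPM in noNSUN at 20°C, 178, 156 and 171 CPM in wild type at 27°C and 137, 193 and 210.0 CPM in wild type at 20°C. All 4 groups overlap, and the lowest value belongs to the wild-type library that stands apart. The log2 change in noNSUN against wild type was 0.09 ± 0.14 (SE) at 20°C and 0.03 ± 0.14 (SE) at 27°C, and without the library that stands apart it was −0.07 at 20°C.

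Of its 2 partners, npp-4 did not separate the genotypes at 20°C, and npp-1 did so narrowly on counts too few to test. Footprints on npp-4 were 212, 145 and 58.6 CPM in noNSUN against 156, 102 and 215 CPM in wild type at 20°C, with full overlap. The log2 change was 0.02 ± 0.45 (SE, adjusted p = 0.993) in RPFs and −0.13 ± 0.44 (SE, adjusted p = 0.999) in translation efficiency. At 27°C npp-4 had 206, 134 and 216 CPM in noNSUN and 76.1, 177 and 175 CPM in wild type, a log2 change of 0.53 ± 0.49 (SE, adjusted p = 0.892). Footprints on npp-1 were 112, 109 and 87.9 CPM in noNSUN and 77.9, 87.5 and 76.8 CPM in wild type at 20°C, and 82.2, 89.9 and 216 CPM in noNSUN and 47.6, 88.5 and 43.8 CPM in wild type at 27°C. At 20°C the npp-1 groups touch without overlap, the lowest noNSUN library being at 87.9 and the highest wild-type library at 87.5 CPM. In RNA neither partner passed the test at 20°C, with log2 changes of 0.17 ± 0.14 (SE, adjusted p = 0.937) for npp-4 and 0.09 ± 0.12 (SE, adjusted p = 0.94) for npp-1. Summed over the 3 genes, footprints were 1.81 times as high in noNSUN as in wild type at 20°C, a sum that npp-11 itself enters. Without npp-11 the partners summed to 1.01 times the wild-type mean at 20°C and 1.55 times at 27°C, with overlap at both.

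**Figure D1:**
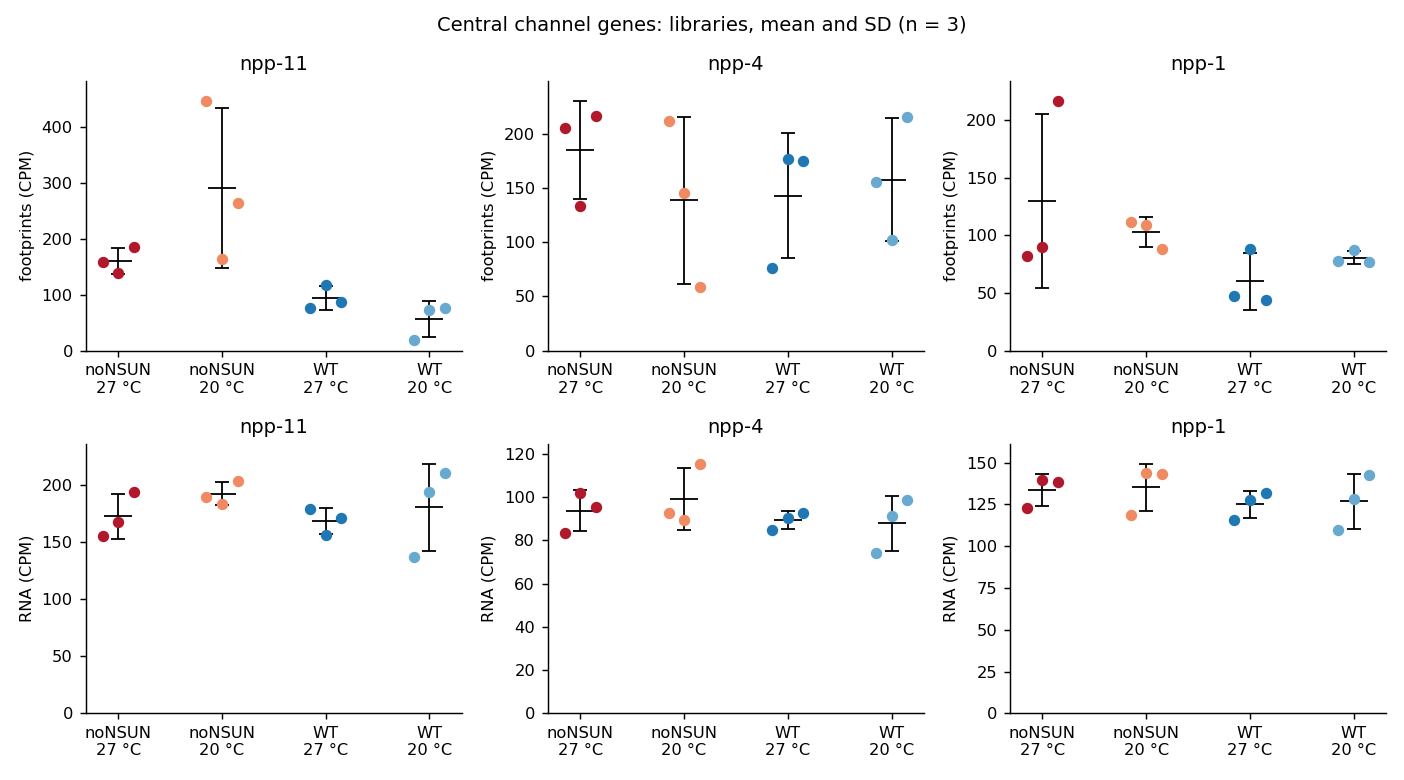
Footprints (upper row) and RNA (lower row) of npp-11, npp-4 and npp-1 in CPM, with 1 point per library and the mean and SD of 3 replicates in noNSUN and wild type (WT) at 27 and 20°C. The noNSUN footprint libraries of npp-11 lie above the wild-type ones at both temperatures, 163 CPM and more against 76.8 CPM and less at 20°C, while RNA overlaps and npp-4 does not separate.

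The other FG nucleoporins showed no shared rise at 20°C. The product of npp-10 is cut into Nup98, an FG nucleoporin, and Nup96, a scaffold protein of the Y complex. Its footprints were 502, 399 and 616 CPM in noNSUN against 389, 423 and 353 CPM in wild type at 20°C, a log2 change of 0.30 ± 0.29 (SE, adjusted p = 0.65), and its translation efficiency differed by 0.24 ± 0.29 (SE, adjusted p = 0.757). The product of npp-7 (Nup153) stands on the nuclear basket and that of npp-9 (Nup358) on the cytoplasmic filaments. In translation efficiency at 20°C npp-7 differed by −0.22 ± 0.29 (SE, adjusted p = 0.782) and npp-9 by −0.52 ± 0.26 (SE, adjusted p = 0.338), both below 0. The gene npp-14 (Nup214, on the cytoplasmic side) had too few counts for a test, with 123, 127 and 117 CPM in noNSUN and 117, 102 and 154 CPM in wild type at 20°C, and the values overlap. Of the 5 FG genes that could be tested at 20°C, npp-11 and npp-10 had a positive change in translation efficiency and npp-4, npp-7 and npp-9 a negative one.

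At 27°C the FG genes npp-7, npp-9 and npp-14 had footprint libraries that did not overlap between genotypes, and npp-7 and npp-9 did not pass the test while npp-14 was too low for it. On the basket side npp-7 had 329, 331 and 402 CPM in noNSUN against 304, 295 and 307 CPM in wild type, without overlap, a log2 change of 0.18 ± 0.30 (SE, adjusted p = 0.959). On the cytoplasmic side npp-9 had 370.0, 355 and 340.0 CPM in noNSUN against 476, 502 and 745 CPM in wild type, also without overlap, a log2 change of −0.59 ± 0.27 (SE, adjusted p = 0.645), the lowest of the 23 members. Its translation efficiency differed by −0.57 ± 0.26 (SE, adjusted p = 0.772). The untested npp-14 had 117, 136 and 124 CPM in noNSUN and 66.6, 88.5 and 87.6 CPM in wild type, so that it went the other way from npp-9 on the same face. Between-group gaps of this kind were not confined to the family. Of all 1624 genes tested, 7.64% had every noNSUN library above and 5.79% every noNSUN library below the wild type at 27°C. Of the 23 members 4 and 3 did, larger shares that rest on few genes and were not tested.

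No scaffold gene that could be tested passed at 20°C. The Y complex, the outer ring, has 7 members by this naming (npp-2, npp-5, npp-6, npp-15, npp-18, npp-20 and npp-23), and 2 of them could be tested in RPFs. The log2 changes in RPFs at 20°C were −0.16 ± 0.45 (SE, adjusted p = 0.902) for npp-6 (Nup160) and −0.54 ± 0.51 (SE, adjusted p = 0.639) for npp-15 (Nup133). Below the filter, npp-2 (Nup85) had 55.8, 54.4 and 87.9 CPM in noNSUN against 156, 175 and 184 CPM in wild type at 20°C, lower without overlap on 11 counts against 44. At 27°C npp-2 had 88.1, 112 and 124 CPM in noNSUN and 76.1, 59.0 and 131 CPM in wild type, which overlap. In RNA npp-2 had a log2 change at 20°C of −0.01 ± 0.13 (SE, adjusted p = 0.996). Also untested, npp-18 (Seh1) had 100.4, 90.6 and 176 CPM in noNSUN against 0, 72.9 and 61.5 CPM in wild type at 20°C, higher without overlap on 20 counts against 14, so that genes of 1 complex lay on both sides. In RNA npp-18 was the lowest of the 40 members at 20°C, at −0.15 ± 0.15 (SE, adjusted p = 0.937), and npp-23 (Nup43) the highest at 27°C, at 0.18 ± 0.13 (SE, adjusted p = 1.00). RNA of npp-23 was 70.1, 69.7 and 75.9 CPM in noNSUN against 65.3, 56.5 and 68.7 CPM in wild type at 27°C, without overlap. With heat in noNSUN it was also the highest of the 40, at 0.24 ± 0.13 (SE, adjusted p = 0.634).

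The inner ring, which joins the scaffold to the channel, is formed here by npp-3 (Nup205), npp-8 (Nup155), npp-13 (Nup93) and npp-19 (Nup35). In translation efficiency at 20°C npp-3 was the lowest of the 23 members, at −0.74 ± 0.45 (SE, adjusted p = 0.451). Its footprints were 145, 90.6 and 352 CPM in noNSUN and 195, 314 and 246 CPM in wild type, which overlap widely. The gene npp-13 had 211, 199 and 247 CPM in noNSUN against 295, 354 and 307 CPM in wild type at 27°C, lower without overlap, with a log2 change of −0.56 ± 0.32 (SE, adjusted p = 0.708). Neither gene passed the test. Exons of npp-3, npp-8 and npp-10 overlap exons of other genes on the same strand by 314, 236 and 219 bases and those of xpo-1 a gene on the opposite strand by 153 bases, and the strand setting of the counting was not stated, so the RNA values and translation efficiencies of these 4 are less certain than those of npp-11.

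In npp-8 the footprint libraries separated by temperature and overlapped between genotypes. Footprints were 99.8, 122 and 124 CPM in noNSUN at 27°C against 212, 254 and 176 CPM in noNSUN at 20°C, and 66.6, 177 and 131 CPM in wild type at 27°C against 253, 197 and 215 CPM in wild type at 20°C. In both genotypes every heated library was below every library at 20°C. The log2 change with heat was −0.87 ± 0.38 (SE, adjusted p = 0.225) in noNSUN and −1.03 ± 0.45 (SE, adjusted p = 0.389) in wild type, and in translation efficiency it was −0.83 ± 0.29 (SE, adjusted p = 0.276) and −0.95 ± 0.35 (SE, adjusted p = 0.821) in the same order. None passed the test. RNA of npp-8 differed little with heat, by −0.04 ± 0.11 (SE, adjusted p = 0.971) in noNSUN and −0.12 ± 0.11 (SE, adjusted p = 0.817) in wild type. The heat contrasts of the 2 genotypes use different libraries. Of all genes, 12.9% had every heated noNSUN library below those at 20°C and 7.08% had this in wild type.

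Nucleoporins of the pore membrane and the remaining basket and cytoplasmic genes showed no separation in RPFs between genotypes. The membrane nucleoporin npp-12 (gp210) had a log2 change of −0.09 ± 0.31 (SE, adjusted p = 0.925) in RPFs at 20°C and npp-21 (Tpr, the basket filament) one of 0.13 ± 0.28 (SE, adjusted p = 0.869). In RNA npp-21 had 530.0, 569 and 597 CPM in noNSUN against 607, 639 and 668 CPM in wild type at 27°C, lower without overlap, with a log2 change of −0.17 ± 0.10 (SE, adjusted p = 1.00). RNA of npp-24 (Nup88, cytoplasmic side) was 68.7, 55.4 and 70.9 CPM in noNSUN at 27°C against 78.2, 85.9 and 76.6 CPM in noNSUN at 20°C, a log2 change of −0.30 ± 0.13 (SE, adjusted p = 0.496). For npp-26 and npp-27 no role is given. RNA of npp-27 was the highest of the 40 members in noNSUN against wild type at 20°C, at 0.24 ± 0.14 (SE, adjusted p = 0.937), with 72.1, 67.4 and 72.3 CPM in noNSUN against 50.9, 62.6 and 65.1 CPM in wild type. The lowest RNA change at 27°C and with heat in noNSUN belonged to npp-26, at −0.59 ± 0.60 (SE, adjusted p = 1.00) and −0.65 ± 0.57 (SE, adjusted p = 0.854), but this gene lay between 1.16 and 5.89 CPM in all RNA libraries and had 3 footprints in all 12 RPF libraries together.

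**Figure D2:**
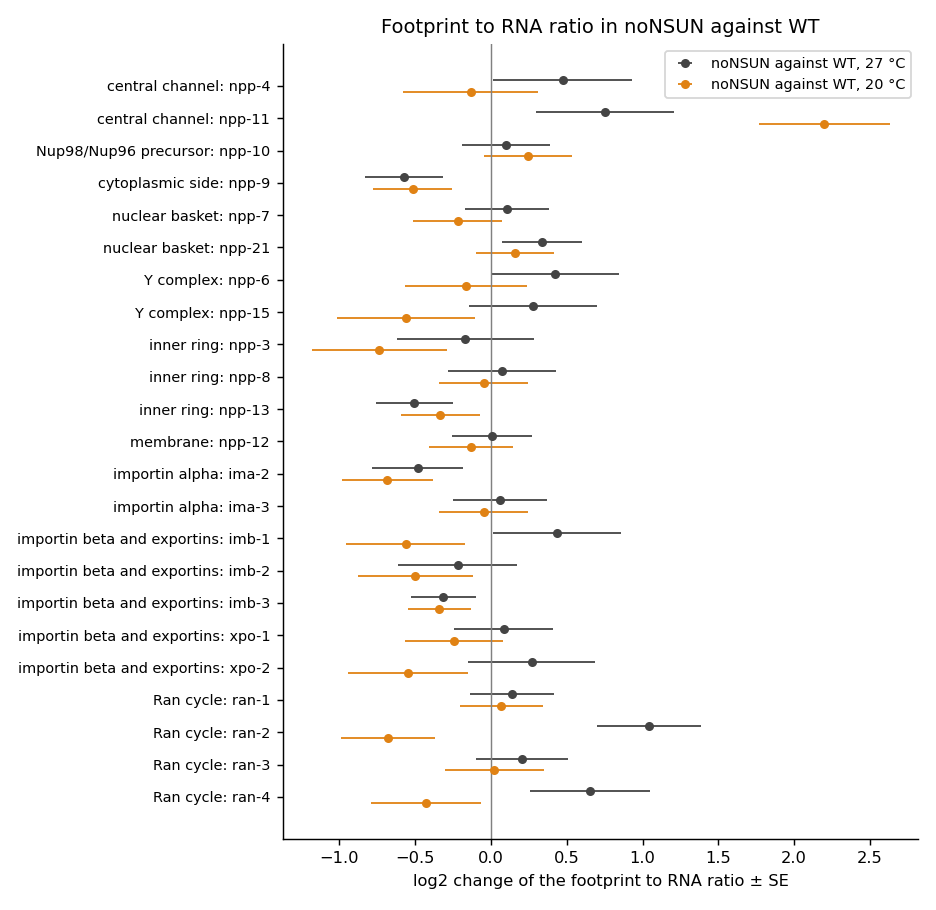
Log2 change of the footprint to RNA ratio (translation efficiency) in noNSUN against wild type for the 23 members tested, at 27°C (grey) and 20°C (orange), ordered by role, with bars of 1 SE. At 20°C npp-11 stands alone at 2.20 and 18 of the 23 members lie below 0, while at 27°C 17 lie above 0 with ran-2 at 1.04.

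The summed footprints of the transport receptors were lower in noNSUN at 20°C, in the direction opposite to npp-11, a sum that has no test. Importin beta (imb-1), transportin (imb-2), importin 5 (imb-3) and the exportins xpo-1 (CRM1), xpo-2 (CAS, which returns importin alpha to the cytoplasm) and xpo-3 (exportin-t, for tRNA) summed to 1952, 2102 and 1642 CPM of footprints in noNSUN against 2180.0, 2465 and 2735 CPM in wild type at 20°C. The noNSUN sums were all below the wild-type sums, at 0.772 times their mean. No gene of the group passed the test in RPFs at 20°C, and the 5 tested ones lay between −0.57 (xpo-2) and −0.27 (xpo-1), all below 0. The untested xpo-3 went the other way, with 123, 72.5 and 117 CPM in noNSUN and 58.4, 36.5 and 92.2 CPM in wild type at 20°C, which overlap. At 27°C the sums were 1457, 1721 and 1298 CPM in noNSUN against 1579, 2007 and 1928 CPM in wild type, which overlap. At 20°C each single gene of the group overlapped between genotypes. For xpo-1 footprints were 234, 344 and 234.5 CPM in noNSUN and 350.4, 372 and 215 CPM in wild type at 20°C, and translation efficiency differed by −0.24 ± 0.32 (SE, adjusted p = 0.78). For imb-2 translation efficiency differed by −0.50 ± 0.38 (SE, adjusted p = 0.55) and for imb-1 by −0.56 ± 0.39 (SE, adjusted p = 0.51). RNA sums of the group overlapped between genotypes at both temperatures, at 0.973 times the wild-type mean at 20°C and 0.953 times at 27°C.

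Within this group imb-3 gave the only call of the family in RNA. Importin 5 carries ribosomal proteins and histones into the nucleus in other species. The gene lies on chromosome I (WBcel235, 310981 to 314989, minus strand), 3559 bases from xpo-2 on the same strand. Its RNA was 749.9, 779 and 815 CPM in noNSUN at 27°C against 996, 1020.5 and 1079 CPM in noNSUN at 20°C, means of 781 ± 32.7 and 1032 ± 42.6 (SD, n = 3 each). In wild type it was 908, 883 and 899 CPM at 27°C against 1066, 1082 and 1119 CPM at 20°C. Heated libraries were below unheated ones without overlap in both genotypes. The log2 change with heat was −0.40 ± 0.08 (SE, adjusted p = 0.0365) in noNSUN, past the threshold, and −0.28 ± 0.08 (SE, adjusted p = 0.181) in wild type. The difference between the 2 responses, −0.12 ± 0.12 (SE, adjusted p = 1.00), did not pass, so a larger response in noNSUN is not shown. Of all genes tested in RNA, 1.04% passed with heat in noNSUN (112 of 10815, with 1 of the 40 members) and 0.943% in wild type (102, with 0 of the 40).

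The imb-3 call was narrow. It was kept in 2 of 15 fits that left out libraries (without wild-type 20°C replicate 1, and without replicate 1 of every group) and lost in the other 13, and the change stayed between −0.44 and −0.37 throughout. Without a filter on low counts the adjusted p was 0.0921. With DESeq2 the adjusted p was 1.703e-05 in noNSUN and 0.008994 in wild type. Between genotypes imb-3 RNA at 27°C was lower in noNSUN without overlap, at −0.20 ± 0.08 (SE, adjusted p = 1.00), and at 20°C it differed by −0.08 ± 0.08 (SE, adjusted p = 0.937). Footprints on imb-3 were 675, 751 and 618 CPM in noNSUN against 847, 1092 and 1227 CPM in wild type at 27°C, without overlap, a log2 change of −0.54 ± 0.24 (SE, adjusted p = 0.645). At 20°C they were 904, 1196 and 704 CPM in noNSUN against 1168, 1305 and 1214 CPM in wild type, a log2 change of −0.42 ± 0.24 (SE, adjusted p = 0.369). Translation efficiency of imb-3 differed by −0.34 ± 0.21 (SE, adjusted p = 0.458) at 20°C and −0.31 ± 0.21 (SE, adjusted p = 0.949) at 27°C, and with heat by 0.01 in noNSUN and −0.01 in wild type.

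Importin alpha proteins, which bridge nuclear localisation signals and importin beta, are encoded by ima-1, ima-2 and ima-3. Footprints on ima-2 were 357, 308 and 352 CPM in noNSUN against 369.9, 547 and 553 CPM in wild type at 20°C. Of the 23 members tested it was the only one below the wild type without overlap in RPFs at 20°C, as npp-11 was the only one above it, where 7.57% of all genes tested lay below and 12.1% above. The log2 change of ima-2 was −0.59 ± 0.29 (SE, adjusted p = 0.294) in RPFs and −0.68 ± 0.30 (SE, adjusted p = 0.257) in translation efficiency. At 27°C the values were 388, 269.8 and 309 CPM in noNSUN and 428, 325 and 613 CPM in wild type, which overlap. In ima-3 translation efficiency differed at 20°C by −0.05 ± 0.29 (SE, adjusted p = 0.979). RNA of ima-2 was 391, 497 and 509 CPM in noNSUN at 27°C against 517, 599 and 594 CPM in noNSUN at 20°C, a log2 change of −0.29 ± 0.15 (SE, adjusted p = 0.618). RNA of imb-1 was 229, 244 and 237 CPM in noNSUN at 27°C against 254, 266 and 260.4 CPM in noNSUN at 20°C, a log2 change of −0.14 ± 0.10 (SE, adjusted p = 0.775). Both were lower with heat without overlap and did not pass the test. Germline and oocyte marker RNA summed to 6177 to 8141 CPM in noNSUN at 27°C and 7402 to 8775 CPM in noNSUN at 20°C, which overlap, with 5 of 12 markers positive and 0 called, and its part in these values was not tested.

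**Figure D3:**
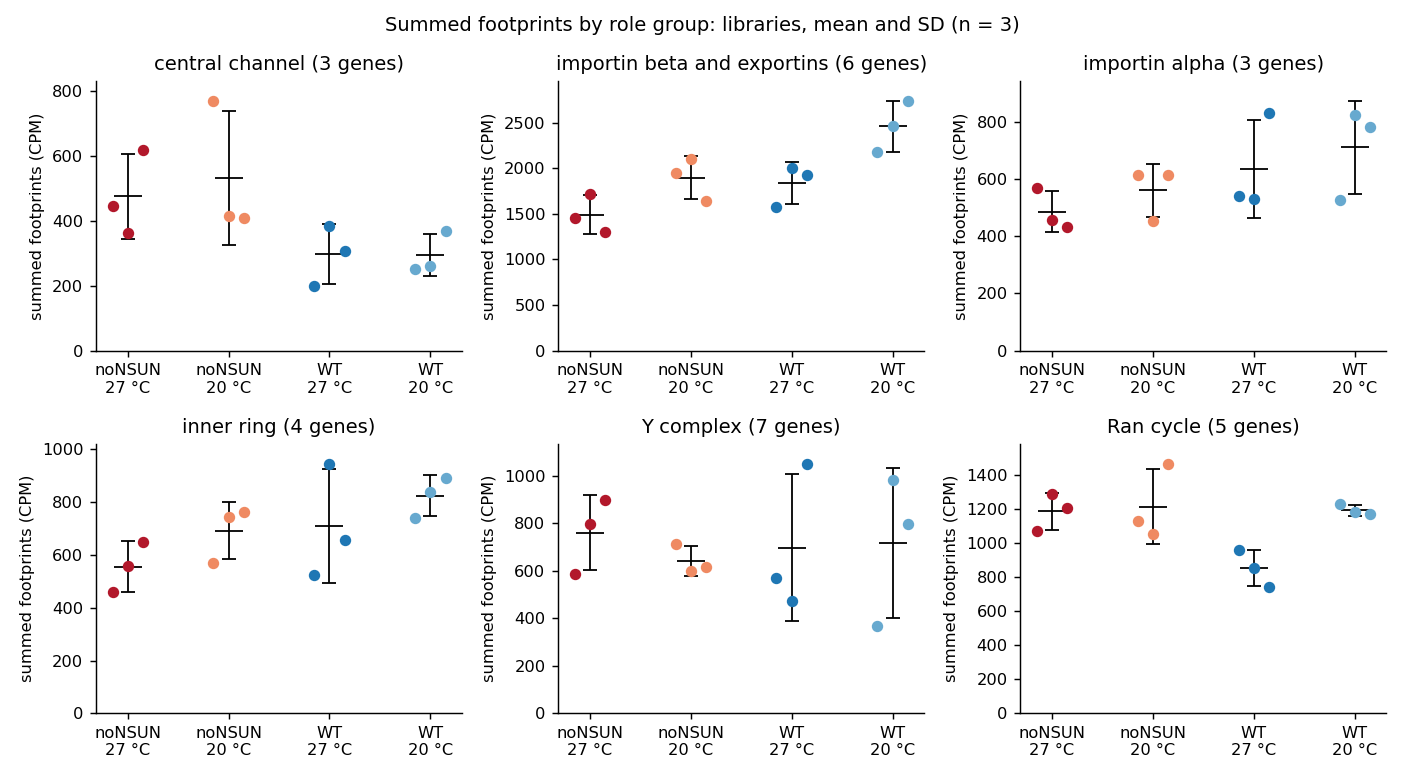
Summed footprints in CPM of 6 role groups, with 1 point per library and the mean and SD of 3 replicates in noNSUN and wild type (WT) at 27 and 20°C. At 20°C the importin beta and exportin sums lie below the wild type in noNSUN (0.772 times its mean), and at 27°C the Ran cycle sums lie above it (1.39 times).

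The summed footprints of the Ran cycle genes lay apart between the genotypes at 27°C and overlapped at 20°C. This was not particular to them, and no sum was tested. At 27°C the cytoplasmic side sums lay below the wild type without overlap, at 0.754 times its mean. Those of npp-26 and npp-27, with no role given, lay above it, at 1.58 times. That gap was narrow, 89.95 against 88.54 CPM, on 6, 3 and 2 counts in wild type. Footprints on npp-27 alone overlapped between genotypes. The Ran cycle genes are ran-1 (the GTPase), ran-2 (its GTPase-activating protein), ran-3 (RCC1, its exchange factor), ran-4 (NTF2, the import carrier of Ran) and ran-5 (RanBP3). Their summed footprints were 1069, 1286 and 1205 CPM in noNSUN against 961, 856 and 745 CPM in wild type at 27°C, without overlap, 1.39 times the wild-type mean. At 20°C the sums were 1127, 1051 and 1466 CPM in noNSUN against 1227, 1181 and 1168 CPM in wild type, 1.02 times the mean. RNA sums overlapped at both temperatures. For the GTPase ran-1 itself translation efficiency differed by 0.07 ± 0.27 (SE, adjusted p = 0.966) at 20°C and 0.14 ± 0.28 (SE, adjusted p = 0.998) at 27°C.

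Among the 23 members tested in RPFs, the genotype difference in footprints changed most between the 2 temperatures in ran-2. The gene lies on chromosome III (WBcel235, 7933535 to 7937708, plus strand), 479 bases after npp-15 on the same strand. Its footprints at 27°C were 135, 224 and 247 CPM in noNSUN against 105, 118 and 87.6 CPM in wild type, higher without overlap. The wild-type values rest on 11, 4 and 2 counts, the last under the floor of 3, and the noNSUN values on 23, 92 and 8. At 20°C footprints were 112, 181 and 234.5 CPM in noNSUN against 195, 284 and 323 CPM in wild type. There the means were in the other order. The log2 change in RPFs was 0.88 ± 0.42 (SE, adjusted p = 0.645) at 27°C, the highest of the 23 members, and −0.78 ± 0.37 (SE, adjusted p = 0.284) at 20°C, the lowest. Translation efficiency differed by 1.04 ± 0.34 (SE, adjusted p = 0.564) at 27°C and −0.68 ± 0.31 (SE, adjusted p = 0.279) at 20°C. With heat the log2 change in RPFs was 0.31 ± 0.37 (SE, adjusted p = 0.72) in noNSUN and −1.35 ± 0.42 (SE, adjusted p = 0.134) in wild type. The difference between these responses was 1.67 ± 0.56 (SE, adjusted p = 0.757) in RPFs and 1.72 ± 0.46 (SE, adjusted p = 0.541) in translation efficiency, with an unadjusted p of 0.00106 for the second. In wild type the heated libraries were all below the unheated ones. RNA of ran-2 was 147, 176 and 151 CPM in noNSUN against 179, 162 and 184 CPM in wild type at 27°C, and 164, 166 and 177 CPM in noNSUN against 178, 196 and 182 CPM in wild type at 20°C, with log2 changes of −0.15 ± 0.10 (SE, adjusted p = 1.00) and −0.13 ± 0.10 (SE, adjusted p = 0.937). None of the ran-2 changes passed after adjustment over all genes.

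Footprints on ran-4 behaved like those on ran-2 at 27°C. They were 170.3, 136 and 216 CPM in noNSUN against 85.6, 88.5 and 131 CPM in wild type, higher without overlap. The log2 change was 0.76 ± 0.47 (SE, adjusted p = 0.746). The noNSUN values rest on 29, 56 and 7 counts and the wild-type values on 9, 3 and 3. In wild type footprints on ran-4 were lower at 27°C than at 20°C (136, 175 and 215 CPM) without overlap. The log2 change was −0.89 ± 0.48 (SE, adjusted p = 0.553) and, in translation efficiency, −1.11 ± 0.40 (SE, adjusted p = 0.821). The untested ran-5 had 112, 145 and 117 CPM in noNSUN against 19.5, 94.8 and 108 CPM in wild type at 20°C, higher without overlap, on totals of 22 counts against 21.

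**Figure D4:**
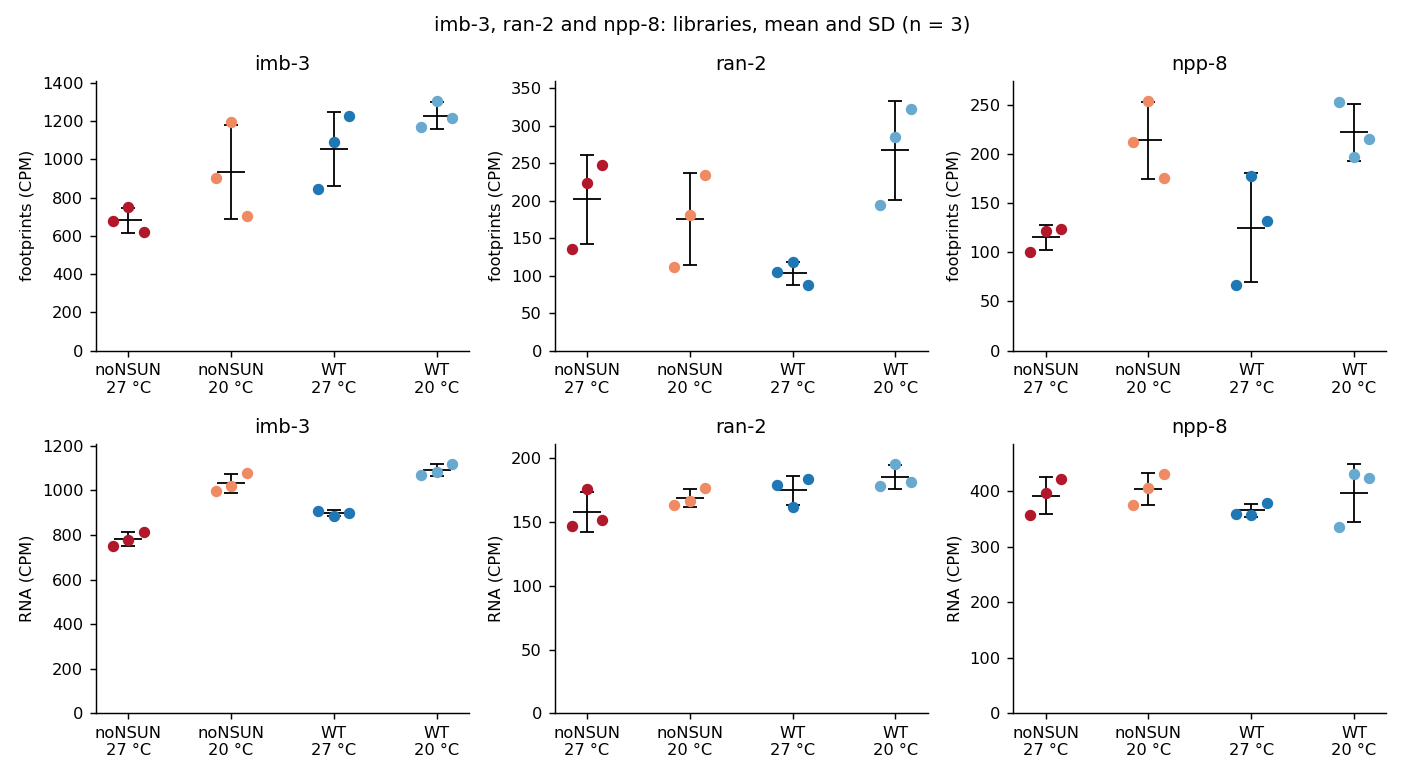
Footprints (upper row) and RNA (lower row) of imb-3, ran-2 and npp-8 in CPM, with 1 point per library and the mean and SD of 3 replicates in noNSUN and wild type (WT) at 27 and 20°C. RNA of imb-3 is lower at 27°C in both genotypes (781 against 1032 CPM in noNSUN). Footprints of ran-2 are low in wild type at 27°C (87.6 to 118 CPM, on 11, 4 and 2 counts). Those of npp-8 are lower at 27°C in both genotypes.

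Apart from npp-11, which was chosen for its change at 20°C, no member of the family was called between genotypes. In noNSUN against wild type at 20°C, 1 of the 23 members tested passed in RPFs (npp-11 itself), where 1.72% of all genes passed (28 of 1624), and 1 in translation efficiency (npp-11), where 0.375% passed (6 of 1599). Since npp-11 was chosen on this contrast, nothing is read from these counts, and the call was not firm. In translation efficiency it was lost with the length and GC offset (adjusted p = 0.103), without a filter (adjusted p = 0.237) and in 13 of 15 fits that left out libraries, and in RPFs DESeq2 gave npp-11 no adjusted p, 4 fits that left out libraries lost the call, and npp-11 failed the filter without replicate 1 and with the 2 groups alone. Without it, 0 of 22 passed in either measure by edgeR or by DESeq2. At an unadjusted p under 0.05 there were 3 members in RPFs (13% of 23, against 16.9% of all genes) and 3 in translation efficiency (13%, against 16.1%), npp-11 included. The other 22 leaned the other way: 5 of the 23 had a positive log2 change in RPFs (21.7%, against 48.5% of all genes tested), and the median was −0.19 over the members, −0.23 without npp-11 and −0.02 over all genes. In translation efficiency the median was −0.24 over the members, −0.29 without npp-11 and 0.01 over all genes. With an offset for coding sequence length and GC content the members' median lay −0.06 from that of all genes in RPFs, where it lay −0.18 from it without the offset, and in translation efficiency −0.13 and −0.26 from it. Coding sequences of the family, untested members included, had a median of 2166 bases. For all genes with a complete coding sequence the median was 996 bases. Spearman's rho between coding sequence length and the change in translation efficiency at 20°C was 0.121 over the 22 tested members without npp-11. Over the 1596 tested genes with a coding sequence it was −0.25. The part of length alone in the lean was not tested.

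The lean was not seen in the 17 genes left out of the RPF test. Their mean footprints at 20°C were higher in noNSUN for 10, lower for 6 and at 0 in both for npp-26, and their summed footprints were 1.10 times the wild-type mean, with overlap. The 22 tested members without npp-11 summed to 0.880 times and all 40 members to 0.937 times the wild-type mean at 20°C, and to 0.937 times and 0.979 times at 27°C, with overlap in each case. Summed over the family, footprint levels of noNSUN libraries thus overlapped those of wild-type libraries.

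In noNSUN against wild type at 27°C no member passed in RPFs, where 0.0616% of genes passed (1 of 1624), or in translation efficiency, where 0 of 1599 passed, by edgeR, and no member passed by DESeq2. At an unadjusted p under 0.05 there were 3 members in RPFs (13%, against 7.39% of all genes) and 2 in translation efficiency (8.7%, against 5.82%). The median log2 change was 0.14 in RPFs (16 of 23 positive) and 0.11 in translation efficiency (17 of 23 positive), against 0.00 over all genes in both. In RNA no member passed between genotypes by edgeR or DESeq2, where 0.0832% of genes passed at 20°C (9 of 10815) and 0.0277% at 27°C (3), and at an unadjusted p under 0.05 there were 0 members at 20°C (against 4.54% of all genes) and 1 of 40 at 27°C (against 2.83%), namely imb-3. In RNA 1 member lay above the wild type without overlap at 20°C (npp-27) and 1 below (ran-2), where 4.36% and 4.1% of all genes did, and at 27°C 1 above (npp-23) and 2 below (imb-3 and npp-21), where 4.62% and 4.44% did. RNA of the family was close to level, with a median log2 change of 0.03 at 20°C and 0.01 at 27°C.

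With heat, imb-3 RNA in noNSUN was the only call by edgeR as designed, with no term for the replicate number. In wild type 1 member passed by DESeq2 in RNA, imb-3 again, and without the RNA library that stands apart 1 passed by edgeR, the transportin gene imb-2, at a log2 change of −0.40 (adjusted p = 0.0431), where it was −0.25 ± 0.13 (SE, adjusted p = 0.568) with that library. In RPFs 0 of 23 members passed in noNSUN by edgeR or DESeq2, where 3.45% of genes did (56 of 1624), and 0 of 23 in wild type, where 1.29% did (21). In translation efficiency no gene passed in either genotype by edgeR, and no member by DESeq2. At an unadjusted p under 0.05 there were 2 of 23 members in RPFs in noNSUN (8.7%, against 16.5% of all genes) and 4 in wild type (17.4%, against 10.6%), and in translation efficiency 2 in noNSUN (8.7%, against 11.5%) and 3 in wild type (13%, against 5.38%). In wild type the footprints of 5 members were lower at 27°C without overlap (imb-1, xpo-2, npp-8, ran-2 and ran-4), against 7.08% of all genes. Of these, xpo-2 had 247, 118 and 131 CPM in wild type at 27°C against 331, 248 and 615 CPM in wild type at 20°C, a log2 change of −0.98 ± 0.40 (SE, adjusted p = 0.337), and imb-1 had 133, 177 and 0 CPM against 195, 182 and 369 CPM in the same groups, a log2 change of −0.99 ± 0.48 (SE, adjusted p = 0.47). The members' median was −0.28 against 0.00 over all genes. The importin beta and exportin sums were 0.747 times and the Ran cycle sums 0.716 times their 20°C mean in wild type, both without overlap, and in noNSUN 0.786 times and 0.977 times, both with overlap. The difference between genotypes in the heat response had 0 calls over all genes in RNA, RPFs and translation efficiency by edgeR, and at an unadjusted p under 0.05 it had 0 members in RNA (against 1.16% of all genes), 1 in RPFs (4.35%, against 5.17%) and 2 in translation efficiency (8.7%, against 7.32%). By DESeq2 it had no member either. In noNSUN 2 members were higher (npp-7 and npp-15) and 1 lower (npp-8) without overlap in RPFs, where 8.37% and 12.9% of all genes were, and in wild type none was higher, where 6.59% of all genes were. In RNA 1 member was higher without overlap with heat in noNSUN (npp-23) and 4 lower (ima-2, imb-1, imb-3 and npp-24), where 9.44% and 9.39% of all genes were, and in wild type 1 was higher (npp-15) and 2 lower (imb-3 and xpo-3), where 6.8% and 6.08% were. In RNA npp-15 had the highest change with heat in wild type, at 0.26 ± 0.11 (SE, adjusted p = 0.434), with 207, 222 and 248 CPM at 27°C against 170.1, 197 and 195 CPM at 20°C. In RPFs npp-15 was the highest with heat in noNSUN, at 0.58 ± 0.48 (SE, adjusted p = 0.575), and in translation efficiency npp-7, at 0.46 ± 0.27 (SE, adjusted p = 0.516).

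**Figure D5:**
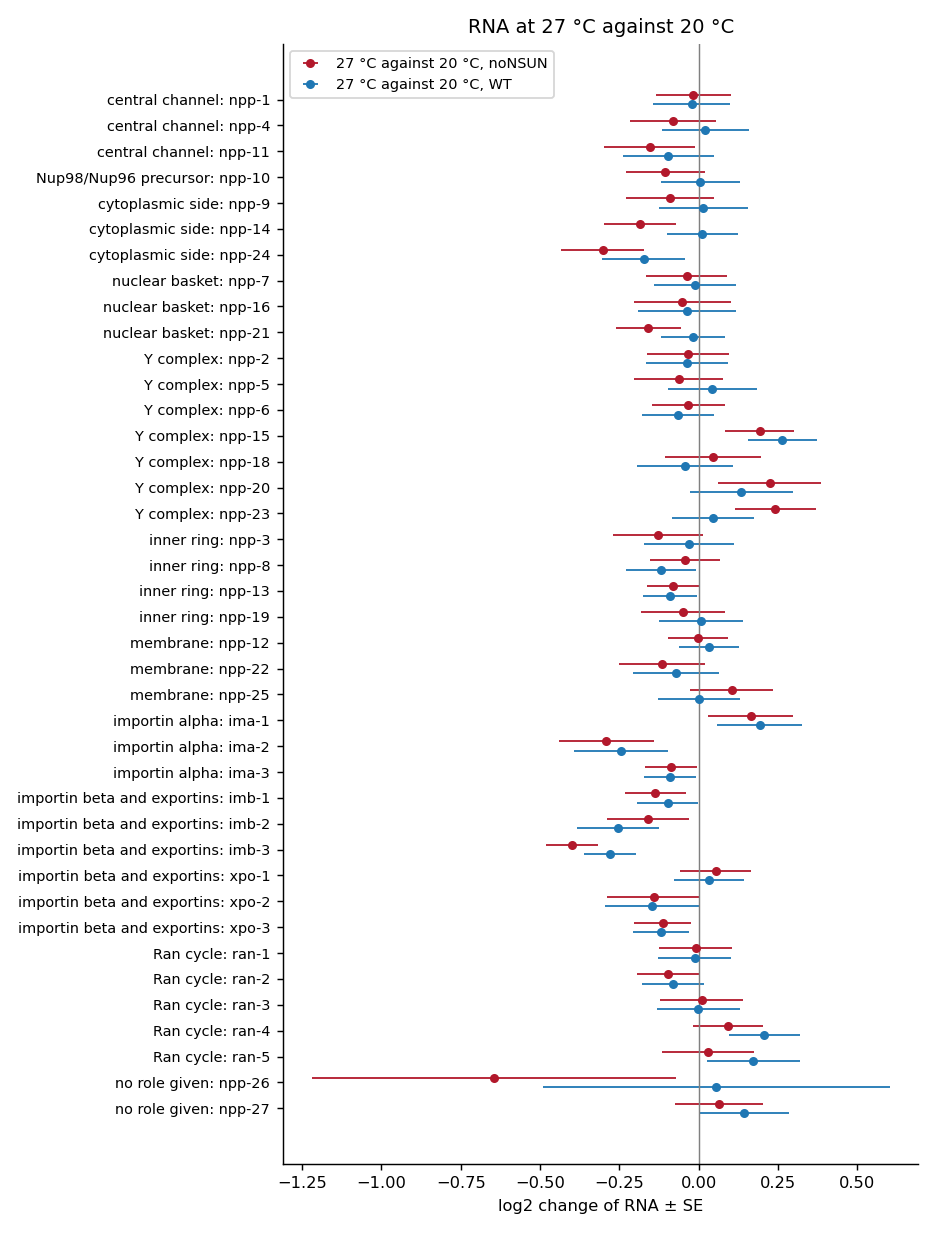
Log2 change of RNA at 27°C against 20°C for the 40 members, in noNSUN (red) and wild type (blue), ordered by role, with bars of 1 SE. The median member lies at −0.06 in noNSUN and −0.02 in wild type, imb-3 lies at −0.40 in noNSUN and −0.28 in wild type, and npp-26 has the widest bars, at 1.16 to 5.89 CPM.

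Levels can be compared between genes only per length. In RNA per kilobase of exon, ran-1 was the highest member in wild type at 20°C, at 523 CPM per kb and above 98.4% of genes tested, followed by ima-2 (299), imb-3 (294) and npp-9 (209), and npp-26 was the lowest, at 1.95 CPM per kb. Of these, ima-2 and imb-3 do not differ beyond their spread. In footprints per kilobase of coding sequence in wild type at 20°C, ran-1 was again the highest, at 756 CPM per kb, followed by ran-4 (476), imb-3 (379) and ima-2 (314). Footprints on npp-11 were 122 CPM per kb in noNSUN, above 35.0% of genes tested, against 23.7 CPM per kb in wild type, above 1.97%. The gene passed the filter through the noNSUN libraries, so nothing is read from its rank in wild type. The noNSUN level was between those of npp-10 (101 CPM per kb) and npp-9 (167 CPM per kb) in the same animals.

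Codon content was set beside the change in translation efficiency at 20°C among members, as a description across genes that share libraries and are not replicates. Over the 22 tested members without npp-11, Spearman's rho between the log2 change and the share of leucine codons was −0.549, against −0.086 over the 1596 tested genes with a coding sequence. For the share of UUG codons it was −0.42 in the members and −0.223 over all, and for proline 0.226 and 0.113. At 27°C rho for leucine was −0.176 in the members and −0.034 over all, and for UUG −0.081 and 0.002. Role and leucine content ran together: the leucine share of the FG nucleoporins npp-7 and npp-9 was above that of 8.6% and 10.6% of genes and that of npp-11 above 37.4%, while that of the receptors imb-2 and xpo-2 was above 95.1% and 93.8%. The part of codon content in the changes was not tested.

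Genes of the nuclear periphery that the naming rule leaves out gave no calls either. In 10 nuclear envelope genes (among them lmn-1, the lamin, and emr-1, emerin) all were tested in RNA and 6 in RPFs. Of 8 mRNA export genes (among them nxf-1, the mRNA export receptor) 8 were tested in RNA and 3 in RPFs, and smo-1, the SUMO gene, was tested in both. None passed in any of the 5 contrasts by edgeR, and at an unadjusted p under 0.05 there were between 0 and 2 genes of a list in any contrast and assay. In translation efficiency at 20°C the nuclear envelope genes had a median log2 change of −0.32, with 2 of 6 positive, against 0.01 over all genes tested. The germline and oocyte markers, tissue in which pore genes are abundantly expressed, summed to 5990.0 to 6977 CPM of footprints in noNSUN against 4264 to 5516 CPM in wild type at 20°C, higher without overlap, opposite to the lean of the tested members. Of the 10 markers tested in RPFs, 7 were positive and 0 called, and 12.1% of all genes tested in RPFs lay above the wild type without overlap. RNA of the 12 markers summed to 7402 to 8775 CPM in noNSUN and 5034 to 9090 CPM in wild type at 20°C, which overlap. The part of germline content in the npp-11 values was not tested.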

How the data were processed

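RNA-seq and Ribo-seq libraries of whole adult C. elegans, 3 per group and assay and 24 in all, were analysed from the raw counts per gene that the authors deposited. Per their methods, the authors trimmed reads with Trimmomatic 0.39, removed ribosomal RNA with SortMeRNA, aligned with HISAT2 2.1.0 to WBcel235 and counted with HTSeq; the strand setting and annotation release are not given in the sources used here. Footprints were kept by the authors where uniquely aligned, of periodic length and in frame on the longest coding sequence, without the first 10 codons, so short genes lose relatively more of their counts.

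Members were matched by symbol through the WBcel235 annotation, which also gave coordinates and coding sequences. Counts were scaled by TMM and shown as CPM. edgeR 4.0.16 quasi-likelihood tests (R 4.3.3) were fitted over all 4 groups of each assay after filterByExpr (minimum count 10, total 15), with Benjamini-Hochberg adjustment over all genes and a threshold of 0.05. Translation efficiency was the assay by group interaction over the 24 libraries; RNA and RPF libraries of 1 lysate are paired, with correlations of their deviations from the group means between −0.0292 and 0.511, and a block for the lysate changed no member's call. All tests were two-sided. The scripts were tested on simulated data. All libraries differed from one another; nothing in the labels says whether replicates were separate cultures, although the study's methods call them biological, and p-values measure the spread between these samples.

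The members and lists were chosen with earlier results of these data known. Genes named were npp-11, its partners npp-4 and npp-1, ran-1, imb-1, imb-2, ima-3 and xpo-1, every member past the threshold, the highest and lowest member in each contrast and assay, members whose genotype groups did not overlap in RPFs, and hsp-16.2, hsp-16.41 and nsun-5 as checks of the labels. Other members named, among them those described for a role group or for RNA groups that did not overlap, were chosen after their values were seen. Alternatives were DESeq2 1.42.0, RLE scaling, no filter, an offset for length and GC content, the replicate number as a block, leaving out libraries, and the 2 compared groups alone.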

Additional observations from a re-analysis of the deposited data

How the results depend on the processing

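With heat in noNSUN, 1 member was called in RNA, 0 without a filter on low counts, and between 0 and 1 when libraries were left out. With heat in wild type no member was called in RNA, but 1 with DESeq2 (imb-3), 1 with the replicate block (imb-3), 1 with the replicate block and the length and GC offset (npp-15), and between 0 and 4 when libraries were left out; the 4, without replicate 1 of every group, were ima-2, imb-2, imb-3 and xpo-2, and without wild-type 20°C replicate 1 alone it was imb-2. In noNSUN against wild type at 20°C the call of npp-11 in RPFs became 0 with DESeq2, which gave no adjusted p for it, 0 with the 2 groups alone, where npp-11 failed the filter on low counts, and between 0 and 1 when libraries were left out (lost in 4 fits, and in 1 more, without replicate 1, by the filter). In translation efficiency it became 0 without a filter (adjusted p 0.2374), 0 with the length and GC offset (adjusted p 0.1033), and between 0 and 1 when libraries were left out (0 in 13 fits). Over the 14 fits with libraries left out that gave npp-11 a value, its log2 change lay between 1.68 and 2.81 in RPFs and between 1.55 and 2.67 in translation efficiency.

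The members' median shift from all genes at 20°C, −0.18 in RPFs and −0.26 in translation efficiency, was −0.024 with the replicate block and the offset in RPFs and −0.063 with the lysate block and the offset in translation efficiency, and in RPFs it lay between −0.328 and −0.0596 when libraries were left out, or between −0.380 and −0.0768 without npp-11. Among single genes, those that changed in sign were npp-11 in RNA at 20°C, between −0.0724 and 0.222 when libraries were left out (−0.0724 without wild-type replicate 1 and −0.0655 without replicate 1 of both genotypes), and npp-4 in translation efficiency at 20°C, between −0.709 and 0.455. Family medians near 0 changed in sign too when libraries were left out, among them the shift in RNA at 20°C (between −0.0773 and 0.114), in RNA with heat in wild type (between −0.150 and 0.0584) and in RPFs with heat in noNSUN (between −0.191 and 0.0536). The causes were not tested.

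Replicate numbers were not taken to pair the samples, since nothing in the labels says what they stand for. The RNA libraries numbered 1 correlated with one another between 0.493 and 0.645. Those numbered 2 correlated with those numbered 3 in other groups between 0.0889 and 0.392, so the shared part mostly set replicate 1 against the rest. In RNA same-numbered samples correlated above 0.1 in 17 of 18 pairs (mean 0.367, lowest 0.0813), against a mean of −0.173 for different numbers, a hint of pairing from the data and not from the design. In RPFs 7 of 18 did (mean 0.074, lowest −0.0999), against a mean of −0.0369. With the replicate block the genes called over the whole table were 160 against 9 in RNA at 20°C, 23 against 3 in RNA at 27°C, 443 against 112 with heat in noNSUN and 459 against 102 in wild type, 56 against 28 in RPFs at 20°C, 6 against 1 at 27°C and 87 against 56 with heat in noNSUN, and 44 against 6 with the lysate block in translation efficiency at 20°C. Over the other settings, DESeq2 called 18 genes in RNA at 20°C, the 2 groups alone 0, and with heat in wild type the 2 groups alone called 23 against 102, while the length and GC offset called 5 against 28 in RPFs at 20°C. RPF depth is a further limit: the floor of 3 counts lay at up to 132 CPM.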
